A study of Rattus norvegicus with 22 samples.

Results

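The 9 genes described here encode the adhesion machinery by which blood leukocytes hold on to the vessel wall and to each other. They are the endothelial ligands Icam1 and Vcam1, the endothelial selectins Sele and Selp, the selectin ligand Selplg, and the integrin chains Itgal, Itgam, Itgb2 and Itga4. They were taken by name from the 17172 genes of the count table, all 9 were found, and all 9 passed the filter on low counts that left 12875 tested genes. RNA-seq counts came from the hippocampus on the injured side of 14 adult male Sprague-Dawley rats. Day 1 tissue came from 2 sham rats and 4 rats with traumatic brain injury (TBI), and day 14 tissue from 4 of each. TBI rats received a moderate lateral fluid percussion through a craniectomy over the right hemisphere. Sham rats shared the anesthesia, the craniectomy and the rest of the surgery but not the percussion, so every group carries the effect of surgery. Each library is bulk tissue of 1 rat, in which more cells of a type and more RNA per cell cannot be told apart.

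Leukocytes leave the blood in steps. Selectins on activated endothelium catch flowing cells by the glycoprotein PSGL-1, which Selplg encodes. Leukocyte integrins, once switched on from inside the cell, then bind ICAM-1 and VCAM-1 and bring the cell to a stop. The αL and αM chains (Itgal, Itgam) pair with the β2 chain (Itgb2) to form LFA-1 and Mac-1, which bind ICAM-1. The α4 chain (Itga4) forms VLA-4, which binds VCAM-1. In the brain, microglia themselves carry Mac-1 and PSGL-1, and astrocytes can carry VCAM-1, so these transcripts are not restricted to blood cells or vessels.

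Libraries held 15065540 to 23743703 counts. Markers of hippocampal neurons (7 of 7 genes), astrocytes (6 of 6) and endothelium (11 of 11) were above 0 in every library. Choroid plexus markers stood apart in 3 libraries. Their summed level, in counts scaled to the normalized library size (CPM), was 10950 in sham day 1 replicate 1, 8653 in TBI day 14 replicate 3 and 2057 in TBI day 14 replicate 2, against 122 to 252 in the other libraries. Where they move without these 3 libraries, counts of called members and of called genes in 4 pathway lists are given both ways, as are the values of some members.

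At day 1, 5 members rose in TBI versus sham (Icam1, Sele, Itgal, Itgam, Itgb2), 2 fell (Vcam1, Selplg) and 2 did not pass the test (Selp, Itga4). At day 14, 4 rose (Icam1, Itgal, Itgam, Itgb2), 0 fell and 5 did not pass (0 lower also at an unadjusted p under 0.05, and by limma-voom and DESeq2). Tests were edgeR's quasi-likelihood test with Benjamini-Hochberg adjustment over all tested genes and a threshold of 0.05, and standard errors (SE) refer to log2 fold changes. Among all tested genes, 11.2% rose and 7.93% fell at day 1, and 4.07% rose and 0.365% fell at day 14. The median log2 fold change of the 9 members was 2.08 at day 1 and 1.28 at day 14, against -0.02 and -0.03 over all tested genes. At day 1, 5 members had every TBI rat above every sham rat, and 2 had every TBI rat below, against 16.7% and 14.1% of tested genes. At day 14 these counts were 4 and 1, against 9.13% and 5.86%. Without the 3 libraries rich in choroid plexus markers, 6 members rose (Selp joined) and 0 fell at day 1, and 4 rose at day 14. In that fit, and in any fit without a sham day 1 replicate, sham day 1 is a single rat assumed to vary like the other groups.

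**Figure D1:**
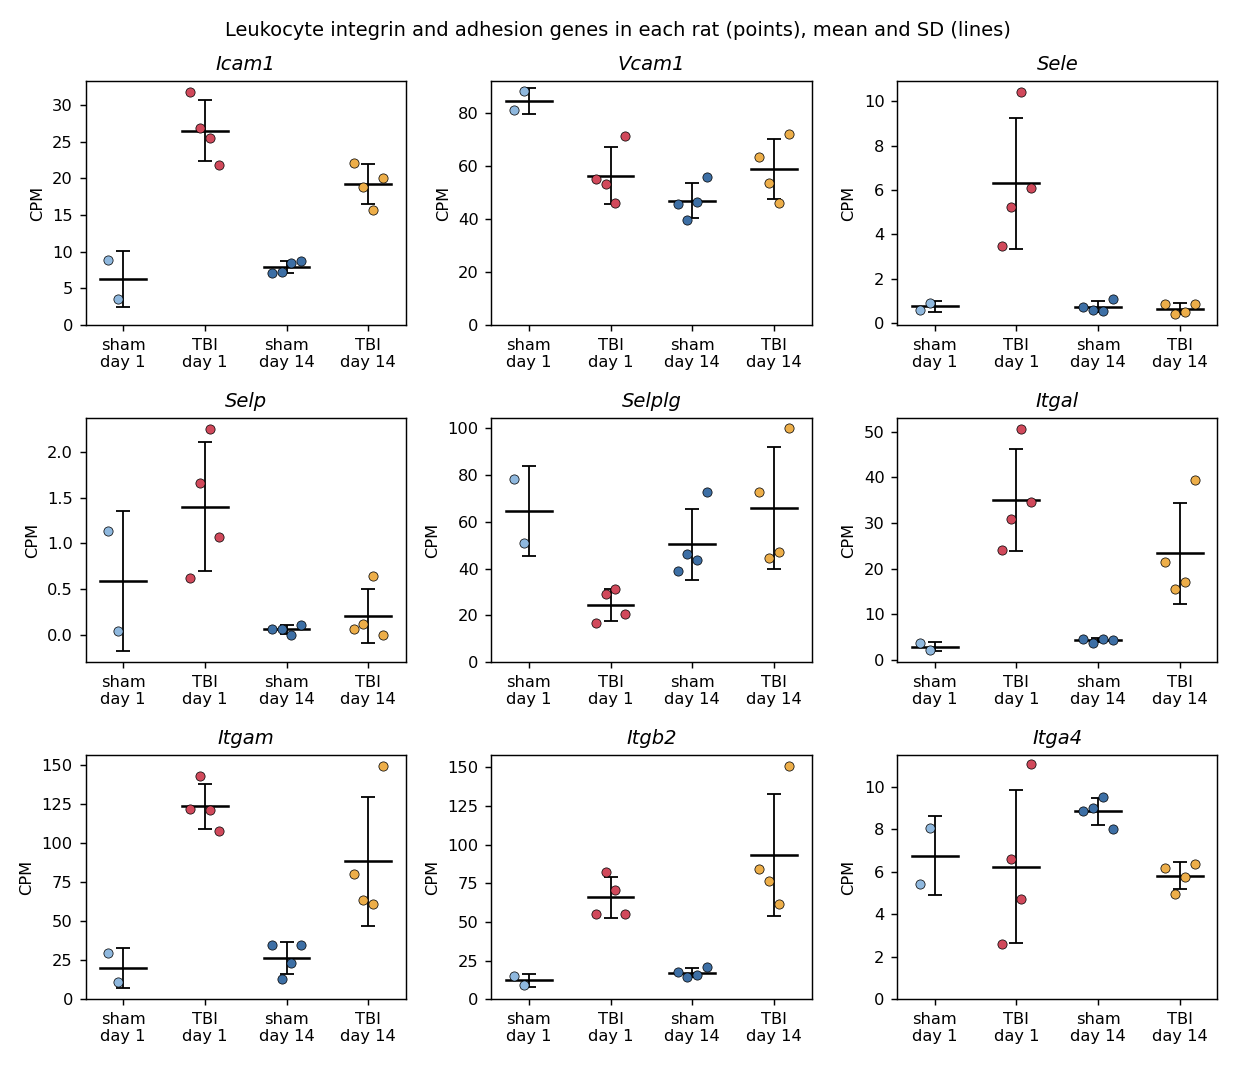
CPM of each of the 9 genes (linear axes) by group, where points are rats, horizontal lines are group means and vertical bars are the SD. TBI rats lay above the sham rats of the same day at both days for Icam1, Itgal, Itgam and Itgb2, while Sele was high in TBI day 1 alone, between 3.48 and 10.4 CPM.

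Icam1 encodes the endothelial and glial ligand of the β2 integrins. Its level was 8.95 and 3.60 CPM in sham day 1 and 31.8, 26.9, 25.4 and 21.8 CPM in TBI day 1. At day 14 it was 7.08, 7.27, 8.44 and 8.76 CPM in sham rats and 22.2, 18.8, 15.8 and 20.1 CPM in TBI rats. No injured rat overlapped the sham rats of its day. The rise was 4.24-fold at day 1 (log2 fold change 2.08, SE 0.298, adjusted p = 0.00028 by edgeR) and 2.43-fold at day 14 (1.28, SE 0.224, adjusted p = 0.0025 by edgeR). The effect at day 1 minus that at day 14 was 0.80 on the log2 scale (SE 0.356, adjusted p = 0.23 by edgeR), and the 2 effects were not shown to differ. That difference depended on 1 library, since without sham day 1 replicate 1 it was 1.60 (adjusted p = 0.0109 by edgeR), and without the 3 choroid-rich libraries, of which that is 1, it was 1.43 (adjusted p = 0.0489 by edgeR).

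Vcam1 encodes the ligand of the α4 integrins and did not follow Icam1. Sham day 1 rats held 81.0 and 88.0 CPM, and TBI day 1 rats 54.9, 53.2, 45.9 and 71.3 CPM, all lower. Sham day 14 rats held 45.5, 39.8, 46.6 and 55.7 CPM, and TBI day 14 rats overlapped them at 63.3, 53.7, 46.0 and 72.2 CPM. The TBI level was thus 1.501 times lower than sham at day 1 (log2 fold change -0.59, SE 0.194, adjusted p = 0.0469 by edgeR) and 1.25-fold of sham at day 14 (0.32, SE 0.162, 95% interval -0.02 to 0.67, adjusted p = 0.428 by edgeR). The sham groups themselves differed, with sham day 1 1.802-fold above sham day 14 (log2 fold change 0.85, SE 0.193, adjusted p = 0.00948 by edgeR). This call was lost without sham day 1 replicate 2 (0.79, adjusted p = 0.0666 by edgeR). The choice of sham decided the day 1 direction: against sham day 14, TBI day 1 was at 0.26 on the log2 scale (adjusted p = 0.199 by edgeR). The day 1 call was lost, at -0.64 to -0.50, on leaving out either sham day 1 rat or any 1 of the injured rats numbered 1, 2 and 3. It was also lost with at least 10 counts in every sample (-0.55, adjusted p = 0.0634 by edgeR) and with only the groups compared (-0.56, adjusted p = 0.189 by edgeR). The same held without the 3 choroid-rich libraries, with the direction kept. In sham day 1 versus sham day 14, Vcam1 was the 1 member that was higher, and 0 were lower (0 also at an unadjusted p under 0.05, and by limma-voom and DESeq2), against 11.3% and 7.88% of all tested genes.

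The promoters of Icam1 and Vcam1 are shown because both genes are textbook targets of NF-κB and yet moved differently here. RefSeq promoter sequences on the rat build GRCr8 were matched to 5 of the 9 members (Icam1, Vcam1, Sele, Itgam, Itga4), and the 250 bases before the annotated start were searched on both strands. The motifs searched were GGNNNTTCC (NF-κB), GAGGAAG (PU.1), TGANTCA (AP-1) and TTCNNNGAA (STAT). Capitals mark matches, printed 5′ to 3′ on the gene's strand. The Icam1 window lies at chr8:27829595-27829844 on the plus strand, and its start site is 157 bases inside the outermost start of the gene. The Vcam1 window lies at chr2:206742784-206743033 on the minus strand and ends at the outermost start.
Icam1: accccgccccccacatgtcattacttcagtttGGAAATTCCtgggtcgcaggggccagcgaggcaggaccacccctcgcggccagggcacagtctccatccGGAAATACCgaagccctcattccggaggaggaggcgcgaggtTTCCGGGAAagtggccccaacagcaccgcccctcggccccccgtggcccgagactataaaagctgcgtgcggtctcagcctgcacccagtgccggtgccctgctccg
Vcam1: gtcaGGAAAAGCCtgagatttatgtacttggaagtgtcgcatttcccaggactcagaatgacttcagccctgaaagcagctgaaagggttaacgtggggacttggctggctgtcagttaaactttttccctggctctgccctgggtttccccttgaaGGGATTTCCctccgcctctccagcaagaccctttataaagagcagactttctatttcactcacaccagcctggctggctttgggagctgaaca
The Icam1 window held GGNNNTTCC at -218, where the letters match on both strands, and at -149 on the opposite strand, and TTCNNNGAA at -107. The Vcam1 window held GGNNNTTCC at -246 on the opposite strand and at -93 on the strand of the gene. Of the 33469 rat promoters of this length, 15.4% held GGNNNTTCC and 7.67% held TTCNNNGAA. So Icam1, which rose at both days, and Vcam1, which was called higher at neither, both held GGNNNTTCC. A match of letters is a description and not evidence of binding. The windows of Sele and Itga4 held none of the 4 motifs, and their start sites lay 517 and 528 bases inside the outermost starts. Both windows thus lay wholly inside the genes. The bases before the outermost starts of these genes were not searched.

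Sele encodes E-selectin, which endothelium makes when stimulated by cytokines. Sham rats were near the low end of detection, with 11 and 20 counts at day 1 (0.593 and 0.922 CPM) and 10 to 20 counts at day 14. TBI day 1 rats had 67, 129, 227 and 136 counts (3.48, 5.24, 10.4 and 6.09 CPM), and TBI day 14 rats had 13, 7, 10 and 16 counts. All 4 injured rats at day 1 were above all sham rats, and at day 14 the groups overlapped. The rise was 8.21-fold at day 1 (log2 fold change 3.04, SE 0.503, adjusted p = 0.000879 by edgeR). At day 14 the log2 fold change was -0.18 (SE 0.417, 95% interval -1.07 to 0.71, adjusted p = 0.937 by edgeR). The effects at the 2 days differed by 3.22 (SE 0.64, adjusted p = 0.0128 by edgeR). This difference kept its direction with limma-voom (3.13, adjusted p = 0.0598) and without the choroid-rich libraries (2.53, adjusted p = 0.118 by edgeR), but not its call. TBI day 14 was 9.61 times lower than TBI day 1 (log2 fold change -3.26, SE 0.389, adjusted p = 2.64e-05 by edgeR).

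Sele was the 1 member whose effect was higher at day 1 than at day 14 by test, and Selplg the 1 that was lower, against 2.24% and 1.44% of tested genes. Between the injured groups, 1 member was higher at day 14 than at day 1 (Selplg) and 2 were lower (Sele, Selp), against 17.6% and 21.9% of tested genes, so these counts stand near the background.

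Selp encodes P-selectin, which endothelium and platelets store. It was sparse, with 21 counts in sham day 1 replicate 1, 1 count in replicate 2, and 12, 41, 49 and 24 counts in TBI day 1. At day 14 sham rats had 1, 1, 0 and 2 counts, and TBI rats 1, 2, 13 and 0. In each of these groups the high library (21 in sham day 1 and 13 in TBI day 14) was the one with the most choroid plexus markers. The day 1 log2 fold change was 1.28 (SE 0.971, adjusted p = 0.375 by edgeR) with all libraries, 4.75 without sham day 1 replicate 1 (adjusted p = 0.0502 by edgeR) and 4.74 without the 3 choroid-rich libraries (adjusted p = 0.0232 by edgeR). Against sham day 14 it was 4.45 (adjusted p = 0.00315 by edgeR). At day 14 the summed counts were 16 in TBI and 4 in sham, a ratio of 3.98 per library total (95% counting interval 1.28 to 16.4). Without TBI day 14 replicate 3 they were 3 and 4, a ratio of 1.03 (0.151 to 6.11). Counts of this size limit what can be seen, and the intervals cover counting error only. TBI day 14 was below TBI day 1 (log2 fold change -2.66, SE 0.855, adjusted p = 0.0232 by edgeR). This call was lost without TBI day 1 replicate 3 or TBI day 14 replicate 1, 2 or 4, at -2.47 to -2.24, and kept without TBI day 14 replicate 3, at -4.41. Platelet markers were low throughout, at a summed 1.43 to 4.12 CPM, with Ppbp at 0 in 13 of 14 libraries.

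Selplg, the ligand of the selectins, fell at day 1, when Sele rose. Sham day 1 rats held 78.1 and 50.9 CPM, and TBI day 1 rats 16.9, 29.1, 31.5 and 20.8 CPM. Sham day 14 rats held 39.0, 46.3, 43.5 and 72.6 CPM, and TBI day 14 rats 72.7, 44.4, 47.0 and 100 CPM. All TBI day 1 rats were below all sham rats of either day. The level was 2.62 times lower at day 1 (log2 fold change -1.39, SE 0.333, adjusted p = 0.00994 by edgeR). At day 14 the log2 fold change was 0.39 (SE 0.281, adjusted p = 0.68 by edgeR). The day 1 call was lost without sham day 1 replicate 1 (-1.05, adjusted p = 0.0788 by edgeR) and without the 3 choroid-rich libraries (-1.06, adjusted p = 0.0506 by edgeR), with the direction kept. The effects at the 2 days differed by -1.78 (SE 0.438, adjusted p = 0.0369 by edgeR). This call was lost when any 1 of sham day 1 replicate 1, replicates 1, 2 and 3 of sham day 14, and replicates 1 and 4 of TBI day 14 was left out, at -1.74 to -1.44. The call was also lost with limma-voom (-1.74, adjusted p = 0.0538). TBI day 14 was 2.69-fold above TBI day 1 (log2 fold change 1.43, SE 0.287, adjusted p = 0.00139 by edgeR).

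Beside Selplg, 2 of the 8 microglial markers, P2ry12 and Tmem119, were also lower in TBI day 1 by the same test. The other 6 were not called, and the list's median log2 fold change was -0.20. P2ry12 was at 10.2 to 18.1 CPM in TBI day 1 and overlapped sham day 14, at 13.7 to 18.6 CPM. The summed level of the 8 microglial markers, none at 0 in any library, was 390 to 501 CPM after injury and 365 to 544 after sham surgery at day 1, and 777 to 1302 CPM after injury and 378 to 495 after sham surgery at day 14. The gene whose pattern across the 14 libraries was most like Selplg was Tmem119 (Pearson r = 0.902). The part of microglial number or state in the Selplg values was not tested.

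**Figure D2:**
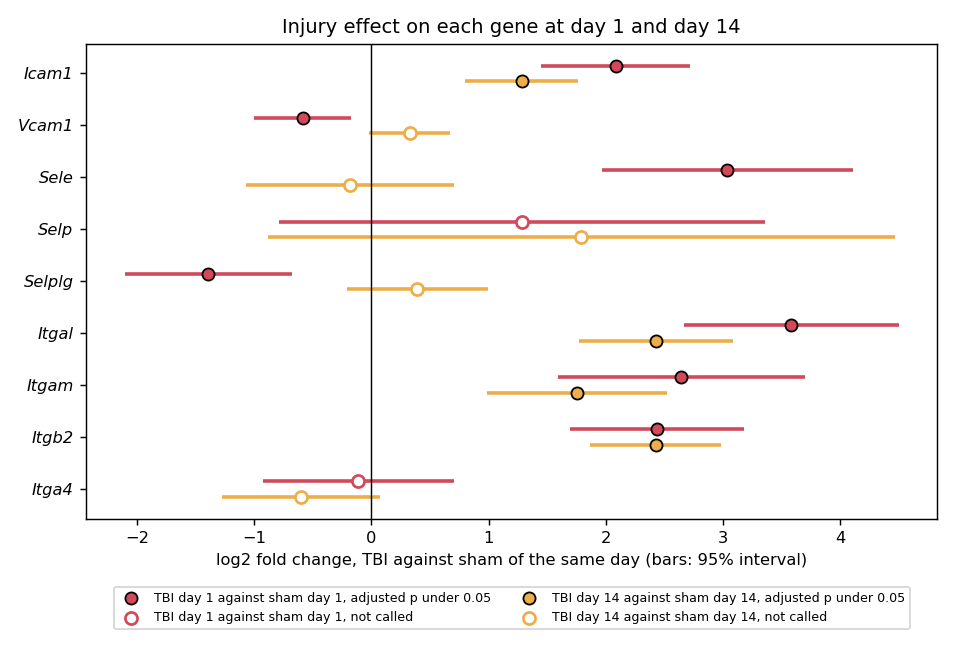
Log2 fold change of each gene, TBI against sham of the same day, with 95% intervals as bars, for day 1 (red) and day 14 (yellow). Filled circles passed an adjusted p of 0.05 by edgeR. Itgb2 stood at 2.43 and 2.42 at the 2 days. The day 1 and day 14 effects of Sele (3.04 and -0.18) and of Selplg (-1.39 and 0.39) differed by edgeR's test but not by limma-voom.

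The β2 integrin chains rose at both days. Itgb2, the shared β2 chain, was at 15.3 and 9.13 CPM in sham day 1 and at 55.4, 82.4, 70.9 and 55.0 CPM in TBI day 1. It was at 18.0, 14.7, 16.01 and 20.7 CPM in sham day 14 and at 84.5, 76.5, 61.4 and 151 CPM in TBI day 14. Groups did not overlap at either day. It rose 5.41-fold at day 1 (log2 fold change 2.43, SE 0.348, adjusted p = 0.00028 by edgeR) and 5.37-fold at day 14 (2.42, SE 0.263, adjusted p = 5.31e-05 by edgeR). The effects differed by 0.01 (95% interval -0.83 to 0.85, adjusted p = 0.992 by edgeR), an interval that leaves room for a difference of either sign.

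Itgal, the αL chain of LFA-1, rose at both days. Its level was 3.66 and 2.21 CPM in sham day 1 and 24.0, 30.9, 50.6 and 34.7 CPM in TBI day 1. At day 14 it was 4.65, 3.79, 4.54 and 4.41 CPM in sham rats and 21.6, 15.5, 17.0 and 39.5 CPM in TBI rats. The lowest injured rat at either day was above the highest sham rat of both days. It rose 11.96-fold at day 1 (log2 fold change 3.58, SE 0.43, adjusted p = 6.72e-05 by edgeR) and 5.38-fold at day 14 (2.43, SE 0.307, adjusted p = 0.000172 by edgeR). The difference between days was 1.15 (SE 0.485, adjusted p = 0.206 by edgeR) and was not called.

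Itgam, the αM chain of Mac-1 also known as CD11b, was at 29.0 and 10.5 CPM in sham day 1 and at 122, 143, 121 and 107 CPM in TBI day 1. At day 14 it was at 34.4, 12.7, 22.9 and 34.5 CPM in sham rats and at 80.1, 63.5, 60.4 and 149 CPM in TBI rats. All injured rats were above all sham rats, although sham rats ranged widely. The rise was 6.25-fold at day 1 (log2 fold change 2.64, SE 0.493, adjusted p = 0.0021 by edgeR) and 3.37-fold at day 14 (1.75, SE 0.361, adjusted p = 0.00826 by edgeR). The calls of Icam1, Itgal, Itgam and Itgb2 at both days were kept under every alternative that gave a value. TBI day 14 replicate 4 was the highest rat of its group for Itgal, Itgam, Itgb2 and Selplg, and also for the summed microglial markers, at 1302 CPM.

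The Itgam promoter, chr1:192089342-192089591 on the plus strand with its start site 96 bases inside the outermost start, is shown for the PU.1 motif of myeloid genes.
Itgam: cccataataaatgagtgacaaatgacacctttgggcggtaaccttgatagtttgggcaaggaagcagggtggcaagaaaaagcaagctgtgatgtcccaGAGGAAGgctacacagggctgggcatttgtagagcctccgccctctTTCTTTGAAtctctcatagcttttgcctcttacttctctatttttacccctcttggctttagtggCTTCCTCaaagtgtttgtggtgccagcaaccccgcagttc
It held GAGGAAG at -151 on the strand of the gene and at -40 on the opposite strand, and TTCNNNGAA at -105. GAGGAAG was held by 10.2% of rat promoters of this length. TGANTCA, held by 6.34%, was in none of the 5 windows, and matches of different motifs did not overlap in them.

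The balance of the chains within a rat was compared by the ratio of their counts. These ratios were chosen after the values were seen, and they compare libraries, not amounts of protein. Itgal to Itgb2 was 0.239 and 0.242 in sham day 1, 0.434, 0.374, 0.714 and 0.631 in TBI day 1, 0.259, 0.257, 0.284 and 0.213 in sham day 14, and 0.255, 0.203, 0.277 and 0.262 in TBI day 14. TBI day 1 was above every rat of the other groups. At day 14 the mean ratio was 0.249 ± 0.0321 (SD, n = 4) in TBI and 0.253 ± 0.0296 (SD, n = 4) in sham, with p = 0.771 by a two-sided exact permutation test. TBI day 14 lay below TBI day 1, at 0.538 ± 0.16 (SD, n = 4), in all 4 rats, with p = 0.0286 by the exact permutation test, the smallest its 70 arrangements allow. Adjusted over 6 tests this was 0.0858, which does not pass 0.05. TBI day 1 against sham day 1 gave an exact p = 0.0667, the smallest 15 arrangements allow, so that design cannot reach 0.05.

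Itgam to Itgb2 spanned 1.71 to 2.20 in injured rats of day 1 and 0.83 to 0.989 in those of day 14, without overlap (exact permutation p = 0.0286, 0.0858 adjusted). Sham rats ranged over 1.15 to 1.89 at day 1 and 0.865 to 1.92 at day 14, and overlapped TBI rats at both days. Itgal to Itgb2 was thus clear of sham at day 1 alone, and Itgam to Itgb2 at neither day.

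**Figure D3:**
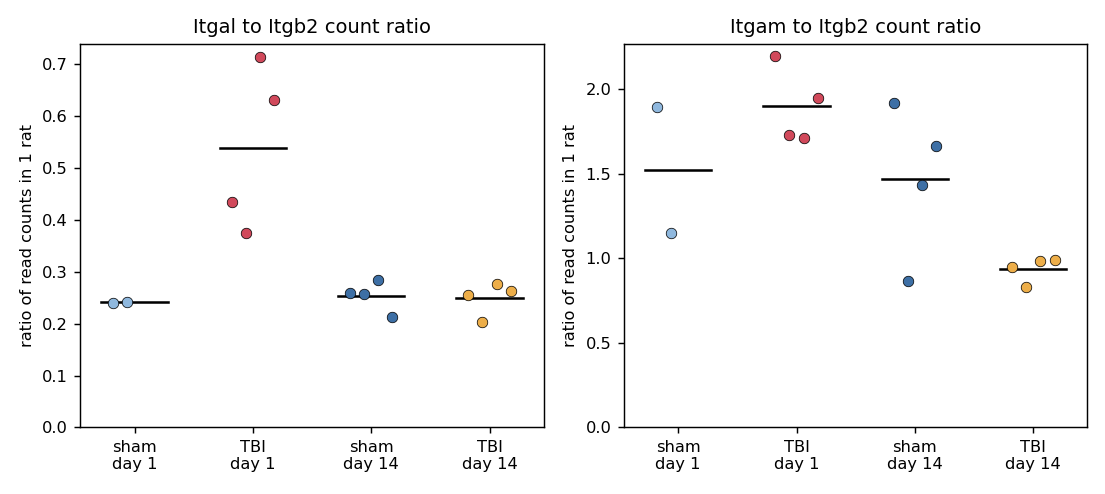
Ratio of read counts within each rat, Itgal to Itgb2 (left) and Itgam to Itgb2 (right), by group, where points are rats and lines are means. TBI day 1 spans 0.374 to 0.714 for Itgal, above all other groups, and TBI day 14 lies at 0.83 to 0.989 for Itgam, below TBI day 1.

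Itga4, the α4 chain of VLA-4, did not pass the test at either day. It was at 5.44 and 8.07 CPM in sham day 1, and TBI day 1 rats spread around these at 2.59, 6.62, 4.72 and 11.1 CPM. Sham day 14 rats held 8.85, 9.01, 9.52 and 8.00 CPM, and TBI day 14 rats 6.17, 4.98, 5.76 and 6.39 CPM, all lower. The day 1 log2 fold change was -0.11 (SE 0.381, adjusted p = 0.863 by edgeR). That of day 14 was -0.60 (SE 0.315, 95% interval -1.28 to 0.07, adjusted p = 0.464 by edgeR). An exact permutation test of the 4 against 4 rats at day 14, run for this member alone, gave p = 0.0286, unadjusted. This is the smallest p of its 70 arrangements and follows from the lack of overlap, so it adds no support. Of all tested genes, 5.86% had every TBI day 14 rat below every sham rat. When only the 2 day 14 groups were fitted, so that the day 1 rats did not enter the spread, the value was -0.57 and was called (adjusted p = 0.0231 by edgeR). That fit called more genes in general, with 204 of 12875 lower at day 14, against 47 with all samples.

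Markers of cells that can carry these molecules were measured in the same libraries, and some lists differed between injured and sham rats. The 11 neutrophil markers summed to 36.6 to 83.5 CPM in injured rats at day 1, above their shams at 7.42 to 18.9, and to 33.3 to 46.4 CPM in injured rats at day 14, above their shams at 10.3 to 25.96. S100a8, S100a9, Csf3r and Cxcr2 rose at day 1. S100a8 and Cxcr2 had very few counts in the other groups and passed the filter on low counts through TBI day 1 alone. Their calls are therefore not independent of that filter. Cxcr2, the neutrophil chemokine receptor, had 52, 211, 91 and 46 counts in TBI day 1 and 0, 0, 2 and 1 in TBI day 14. S100a8 had 75 to 368 counts in TBI day 1 and 0 to 4 in TBI day 14. Csf3r, of the same list, rose at day 14 as well, with 261 to 490 counts in TBI and 72 to 112 in sham. It was the only 1 of the 7 tested neutrophil markers called at day 14, so the day 14 sum does not describe the whole list. The 6 measured monocyte and perivascular macrophage markers summed to 40.4 to 67.7 CPM in injured rats at day 1, against 8.53 to 14.4 in their shams, and to 6.77 to 14.6 CPM at day 14, against 5.89 to 9.96.

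Of the microglial markers, 2 of 8 fell at day 1, and 5 of 8 rose at day 14. The 10 lymphocyte markers summed to 6.74 to 18.5 CPM after injury and 2.21 to 12.2 after sham surgery at day 1, and to 16.9 to 23.4 and 8.49 to 22.7 CPM at day 14, with up to 6 of them at 0 in a library. Cd3e weighed heavily in these sums, with 3 to 381 counts a library and 20.0 of the 22.7 CPM in sham day 14 replicate 1. Of the 5 lymphocyte markers tested, 2 rose at day 1, and the list's median log2 fold change was -0.06. The 11 endothelial markers summed to 425 to 648 CPM after injury and 298 to 493 after sham surgery at day 1, and to 282 to 430 and 343 to 503 CPM at day 14. Of these 11, 1 rose at day 1, and at day 14 0 passed by edgeR in either direction (2 lower at an unadjusted p under 0.05, 0 by limma-voom and 1 lower by DESeq2). Red blood cell markers summed to 436 to 1076 CPM after injury and 263 to 533 after sham surgery at day 1, and to 93.4 to 244 CPM in all rats of day 14. Astrocyte markers summed to 10210 to 16210 CPM after injury and 3676 to 5532 after sham surgery at day 1, and to 6781 to 10510 and 3315 to 4331 CPM at day 14. Of these 6 markers only 1 was called higher at each day. The median log2 fold change of the astrocyte list was -0.21 at day 1 and 0.18 at day 14, so the sums do not describe the whole list. Neuronal markers summed to 1806 to 4709 CPM after injury and 5065 to 7807 after sham surgery at day 1, and to 2865 to 4205 and 3395 to 4547 CPM at day 14. Of these 7 markers, 2 were called lower at day 1 and 5 were not called, so that sum does not describe the whole list. Between the sham groups, 2 were higher at day 1 than at day 14. The part of each cell type in the members' values was not tested.

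**Figure D4:**
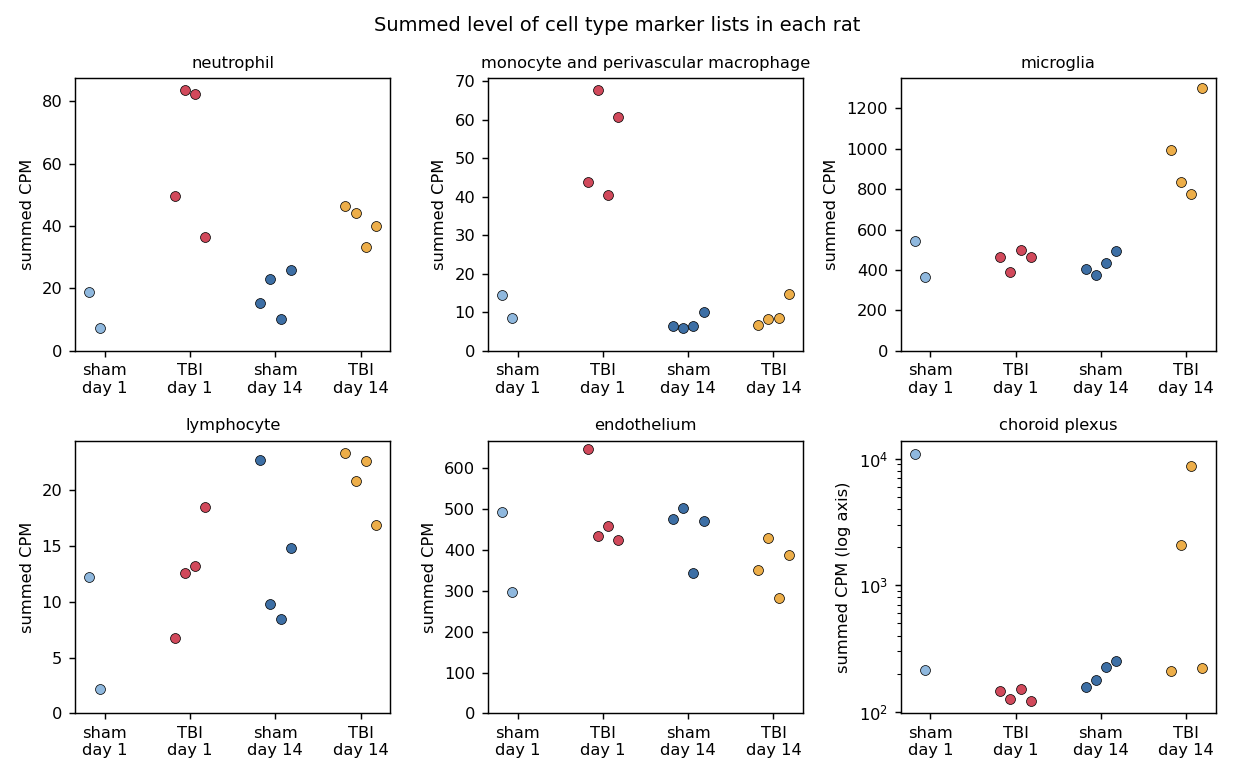
Summed CPM of 6 marker lists in each rat (points) by group, on linear axes except choroid plexus, which has a log axis. Monocyte markers were highest in the 4 TBI day 1 rats, neutrophil markers reached 83.5 CPM there, microglial markers were highest in TBI day 14 at 777 to 1302 CPM, and choroid plexus markers were high in 1 sham day 1 and 2 TBI day 14 rats.

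The other genes of the adhesion cascade were taken as 4 lists, chosen with earlier results of these data known. Among all tested genes, 11.2% rose and 7.93% fell at day 1, and 4.07% rose and 0.365% fell at day 14. Of the integrin partners, 10 of 16 listed genes were measured, and 5 rose and 0 fell at day 1, whereas 0 passed in either direction at day 14 by edgeR or limma-voom (5 higher at an unadjusted p under 0.05, 2 higher by DESeq2). The median log2 fold change of the list was 0.72 at day 1 and 0.38 at day 14. Itgad, a further β2 partner, had 0 counts in both sham day 1 rats and 2 to 14 in TBI day 1, 38 in all. Sham day 14 rats had 0 to 2 counts, so Itgad passed the filter on low counts through injured rats, and its call is not independent of that filter. With sham set at an assumed floor of 3 counts over the group the ratio per library total was 6.51, which is no lower bound. The lower end of the two-sided 95% counting interval of the ratio was 5.04. Itgb7, a partner of the α4 chain, rose by 4.41 on the log2 scale (SE 0.762, adjusted p = 0.00123 by edgeR), from 3 and 8 counts to 63 to 263, and had 3 to 14 counts in TBI day 14. Itga5 of the fibronectin receptor rose by 3.30, and Itgb3 by 1.65. Without the 3 choroid-rich libraries, 3 of the 10 rose at day 1 and 2 at day 14. Itgax and the chains Itgav, Itga2, Itga3, Itga9 and Itga2b were not analysed here.

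Of the adhesion and junction partners, 22 were tested, and 8 rose and 1 fell at day 1, and 1 rose at day 14. The list's median was 0.72 at day 1 and -0.20 at day 14. Cd44, the hyaluronan receptor, rose at both days, by 3.66 and 1.84 on the log2 scale. The matrix gene Fn1 (2.59) and the platelet-binding factor Vwf (1.88) rose at day 1, and Alcam fell by 0.84. Without the 3 choroid-rich libraries, 8 rose and 3 fell at day 1, and 1 rose at day 14.

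Of the selectin ligand synthesis enzymes, 10 were tested, and 4 rose at day 1 and 2 at day 14, with none called lower. Without the 3 choroid-rich libraries, 3 rose at each day. The list's median was 0.22 at day 1 and 0.32 at day 14. Fut7, the fucosyltransferase that completes the selectin-binding sugar, rose by 2.05 at day 1 and 2.13 at day 14, with 44 to 93 counts after injury against 10 and 21 at day 1, and 66 to 114 against 18 to 29 at day 14. B4galt1 (1.46), St3gal4 (1.12) and Gcnt1 (1.06) rose at day 1, and the related Fut4 (1.04) at day 14. Fut7 was thus higher in injured rats at day 1, when the transcript of the protein that it modifies, Selplg, was lower.

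Of the 18 integrin activation genes, 11 rose and 1 fell at day 1, and 8 rose at day 14. Without the 3 choroid-rich libraries these counts were 10, 1 and 9. The list's median was 0.92 at day 1 and 0.66 at day 14. Fermt3, the kindlin that switches on leukocyte integrins, rose by 2.71 and 1.48 at the 2 days. It was also the gene most like Icam1 across the 14 libraries. Vav1, a signaling exchange factor, rose by 2.27 and 2.14. Cytip, which restrains integrin adhesion through the cytohesins, had 2 counts in each sham day 1 rat and 228 in all in TBI day 1, a ratio of 29.3 (95% counting interval 11.3 to 108), and rose by 2.77 on the log2 scale at day 14. Lcp1 rose by 1.84 at day 1, the adapter Fyb by 1.95 at day 14, and Cyth1 fell by 0.45 at day 1. The difference between the effects at the 2 days was called for 5 of the 22 adhesion and junction partners, each higher at day 1, against 2.24% of tested genes. Among the 18 integrin activation genes it was called for 0 by edgeR and limma-voom, and was higher at day 1 for 4 by DESeq2 and for 7 at an unadjusted p under 0.05.

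**Figure D5:**
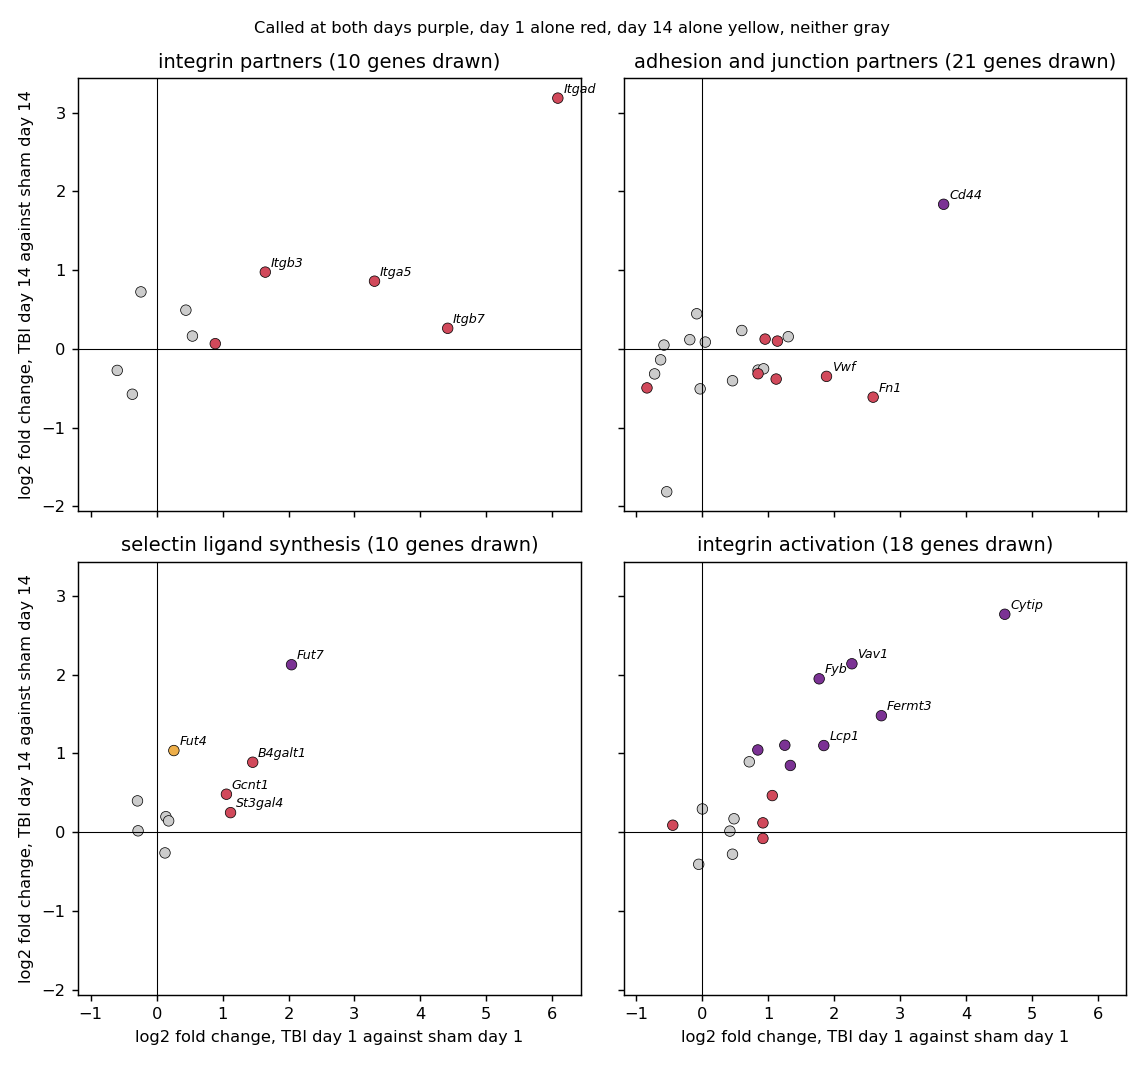
Log2 fold change at day 14 (vertical) against day 1 (horizontal) for the genes drawn from the 4 lists, each day against its own sham. The drawn adhesion and junction partners called at day 1 lie between -0.61 and 0.12 at day 14 apart from Cd44 (3.66 and 1.84), while integrin activation genes such as Vav1 (2.27 and 2.14) lie high on both axes. Itgad is drawn at its fitted value, which is no bound.

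Across the 14 libraries, the log2 CPM of Icam1 had a Pearson r of 0.938 with Itgal, 0.945 with Itgam and 0.902 with Itgb2, and of -0.129 with Vcam1. Itgal and Itgb2 had r = 0.94, and Sele and Selp r = 0.719. These are descriptions, since the libraries share the group differences given above. The genes most like each member were Fermt3, Ltbr and Cass4 for Icam1 (r = 0.982 to 0.968), Myo1f, Slamf9 and Lgmn for Itgal (0.987 to 0.982), and Parp9, Fam38a and Tbxas1 for Itgam (0.963 to 0.959). They were Rasal3, Tgfb1 and Hmha1 for Itgb2 (0.976 for Rasal3) and Capn2, Cdt1 and RGD1559482 for Sele (0.964 to 0.949). For Vcam1 they were Peli2, the astrocyte gap junction gene Gja1 and Scarb2 (0.864 to 0.842). After Tmem119, Selplg was most like Aplp1 and Gprc5b (0.897 and 0.883). Selp was most like Mrpl4, Pdcd6 and Mycbp (0.959 to 0.945) and Itga4 most like Fxr1, Pcdh17 and Mmd (0.905 to 0.895).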

How the data were processed

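Polyadenylated RNA of the ipsilateral hippocampus of 14 rats was measured. The authors aligned single-end reads to rn5 with STAR version 2.4.2a and assigned them to genes of the UCSC annotation by featureCounts version 1.5.0. The deposited values are raw counts per gene symbol, checked to be whole numbers, with no normalization. The H3K4me3 peak lists of 4 day 1 samples were not used here, because no annotation of their build was at hand to place peaks at genes. Total counts per sample ranged from 15065540 to 23743703.

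Differential expression was tested by the quasi-likelihood method of edgeR 4.0.16 under R 4.3.3. Library sizes were scaled by TMM, genes of low counts were removed by the default group-wise filter, and all 14 samples entered a single model of 4 group means. Two-sided p-values of the 12875 remaining genes were adjusted after Benjamini and Hochberg. CPM used TMM library sizes, and log2 CPM a prior count of 2. The study used limma-voom, here an alternative (limma 3.58.1), as was DESeq2 1.42.0. Other alternatives were median-of-ratios factors, no filter, at least 10 counts in every sample, only the groups compared, the replicate numbers as a block, an adjusted p under 0.01, sham day 14 as baseline, and each sample left out. Leaving out the 3 choroid-rich samples was added after seeing the data. The fits were tested on simulated data. Replicates differed by more than counting noise (chi-squared per degree of freedom 12.9 to 168). Figures were drawn with matplotlib 3.10.9.

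The members and gene lists were chosen with earlier results of these data known. Named were all 9 members and, of the 4 pathway lists, up to 4 genes per list and day with the largest absolute log2 fold change among called genes without overlap between TBI and sham samples. A gene that this rule covers is not reported here and not drawn, but is in the counts of its list. Also named were the 3 genes most like each member by Pearson r of log2 CPM. Genes called lower in a list (Alcam, Cyth1) and marker genes were named after their values were seen. The labels do not say how rats were grouped into preparation batches, so no batch was fitted. The paper states for its trajectory figure that expression was corrected for a batch effect, without naming the batches. The limma-voom fit made here carries no such correction. The strand setting of the counting is not given in the sources used here.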

Additional observations from a re-analysis of the deposited data

Results flagged for a closer look

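The effect of TBI differed between day 1 and day 14 for 2 of the 9 genes, by edgeR's test of the difference itself. Neither difference was called by limma-voom (adjusted p = 0.0598 for Sele and 0.0538 for Selplg). For Sele the effect at day 1 was higher by 3.22 on the log2 scale (SE 0.64, adjusted p = 0.0128 by edgeR), with 67 to 227 counts in TBI day 1 against 7 to 20 in every other group. For Selplg it was lower, at -1.78 (SE 0.438, adjusted p = 0.0369 by edgeR), with TBI day 1 rats at 16.9 to 31.5 CPM and TBI day 14 rats at 44.4 to 100 CPM. In the groups of 4 rats, no member had a rat whose gap to its nearest neighbor exceeded Dixon's critical share of the range, and groups of 2 were not tested.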

How the results depend on the processing

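Of the member values under alternatives, 446 kept their direction and side of the threshold, 29 lost their call, 10 gained one and 17 changed sign. The rises of Icam1, Itgal, Itgam and Itgb2 at both days and of Sele at day 1 were kept wherever they were tested. Members lower at day 1 (2 with all data) numbered 1 with at least 10 counts in every sample, with only the groups compared, with an adjusted p under 0.01 and with sham day 14 as baseline, 0 without the choroid-rich samples, and 0 to 2 with 1 sample left out. Against sham day 14, Vcam1 at day 1 turned to 0.26. With only the groups compared, 1 member (Itga4) was lower at day 14. The difference between days was called higher for 1 and lower for 1 member. These became 0 and 0 with limma-voom and with an adjusted p under 0.01, 0 higher with at least 10 counts in every sample, 2 lower (Vcam1, Selplg) with DESeq2, 0 lower without the choroid-rich samples, and 1 to 2 higher and 0 to 2 lower with 1 sample left out. Lower in TBI day 14 than TBI day 1 (2) were 0 with at least 10 counts in every sample, which removed Sele and Selp, 1 with an adjusted p under 0.01, and 1 to 3 with 1 sample left out. Higher were 1 to 2 with 1 left out and 2 (Selplg, Itgb2) without the choroid-rich samples. Lower in sham day 1 than sham day 14 were 0 to 1 with 1 left out and 1 (Icam1) without the choroid-rich samples.

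Values that changed sign with 1 sample left out, none of them called in doing so, were Itga4 at day 1 (-0.54 to 0.20), the Itgb2 difference between days (-0.32 to 0.43), Sele at day 14 (-0.34 to 0.072) and Selp between the sham groups (-0.30 to 4.13). The last was called at 4.13 without sham day 1 replicate 2. Without the choroid-rich samples, Sele at day 14 was 0.23, Selp at day 14 -0.82 and Selp between the sham groups -0.29. The cause of these changes was not tested, apart from the filter that removed Sele and Selp.

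Deviations of samples that share a replicate number had correlations from -0.172 to 0.24, with 4 of 12 pairs over 0.1. Between TBI and sham of day 14 these were -0.0383, 0.131, 0.24 and 0.115. Samples of unlike numbers were not correlated for comparison, so whether the numbers pair the rats is not settled. With the replicate block, members lower in the difference between days rose from 1 to 2, because Vcam1 was called (-0.97, adjusted p = 0.0187 by edgeR). No other member count moved by over 1.5 times with the block. With 2 sham rats at day 1, each day 1 value rests on a spread borrowed from the other groups, and Selp, at 0 to 49 counts a library, is limited by counting.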
